A study of Mus musculus with 12 samples.

Results

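Oxidative phosphorylation genes were taken as the protein-coding genes whose symbols begin with mt-, Nduf followed by a, b, c, s or v, Uqcr, Cox4 to Cox8 or Atp5, together with Sdha, Sdhb, Sdhc and Sdhd. The rule found 105 of the 24728 genes in the count table, of which 14944 were protein coding. Of these 105 members, 13 are encoded by mitochondrial DNA (chromosome MT) and 92 by nuclear chromosomes. By complex, 7 mitochondrial and 45 nuclear members belong to complex I, 8 of the nuclear ones being Ndufaf assembly factors and not subunits. Complex II has 4 nuclear members, complex III has 1 mitochondrial and 8 nuclear, complex IV has 3 and 18, and complex V has 2 and 17. Cox5b-ps and Ndufa4l2, both in the complex IV set, were not counted as subunits either. The filter on low counts (edgeR's filterByExpr) kept 100 members, 11 mitochondrial and 89 nuclear, among 13414 genes. The 5 that it dropped were mt-Atp8, mt-Nd4l, Cox4i2, Cox6b2 and Ndufa4l2.

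The cells were mouse bone-marrow derived macrophages carrying the red fluorescent protein dTomato, sorted after ex vivo assays, in a study of myelin, macrophages and brain tumors. The groups are named Full Tumor, Tumor without Myelin, Myelin Alone and Control, with 3 libraries each, numbered mn 957, 958 and 016 in every group. As tissue the labels give bone marrow and dissociated brain tumor for all 12 libraries, Control included. They do not say what mn stands for, what the Control cells were given, how long the exposure lasted, which tumor model supplied the material, or whether the libraries of a group came from separate animals, so p-values measure the spread between these libraries, which may be technical.

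In oxidative phosphorylation, complexes I and II pass electrons from NADH and succinate by way of ubiquinone to complex III, and cytochrome c carries them on to complex IV, which reduces oxygen. Complexes I, III and IV pump protons across the inner mitochondrial membrane, and complex V, the ATP synthase, uses their return to make ATP. Mitochondrial DNA encodes core subunits of complexes I, III, IV and V, while the nucleus encodes complex II, the other subunits and the assembly factors. In macrophages the balance between respiration and glycolysis is known to shift with the state of activation.

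The mitochondrial members divided sharply by level. Per kilobase of transcript and averaged over the 12 libraries, mt-Cytb (cytochrome b of complex III) stood at 937 CPM, its count scaled to the library total,, mt-Co1 (the catalytic subunit of complex IV) at 752 and mt-Nd1 (complex I) at 631. The other complex I subunits mt-Nd4, mt-Nd5, mt-Nd2 and mt-Nd6 followed at 231, 224, 144 and 114 CPM per kb. By contrast mt-Atp6 and mt-Co2 stood at 3.69 and 3.24, mt-Nd3 and mt-Co3 at 3.21 and 2.30, and mt-Nd4l and mt-Atp8 at 0.270 and 0.187 CPM per kb. mt-Co2, mt-Co3 and mt-Atp6 are indispensable parts of complexes IV and V, and in the nuclear set their partners Cox4i1 and Atp5b stood at 703 and 518 CPM per kb.

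The low mitochondrial genes have copies in the nuclear genome, and 90 bases of mt-Co2 and of mt-Co1 are shown because they let the copies be compared letter by letter. mt-Co2 (chrMT:7068-7157, plus strand) and the pseudogene Gm28661 (chr1:24615421-24615510, minus strand) are identical over the stretch, so no letter is in capitals. mt-Co1 (chrMT:6390-6479, plus strand) and Gm29216 (chr1:24616099-24616188, minus strand) differ at the base in capitals. Coordinates are on GRCm38 (mm10) and the letters come from the GENCODE M21 transcripts.
mt-Co2: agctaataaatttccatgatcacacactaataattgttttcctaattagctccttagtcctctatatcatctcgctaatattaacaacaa
Gm28661: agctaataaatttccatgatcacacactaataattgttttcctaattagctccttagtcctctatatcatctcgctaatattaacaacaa
mt-Co1: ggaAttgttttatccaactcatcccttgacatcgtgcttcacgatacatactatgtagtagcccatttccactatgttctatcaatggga
Gm29216: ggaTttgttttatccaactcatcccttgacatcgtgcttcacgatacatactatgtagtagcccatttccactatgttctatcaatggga

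The copies lie together on chromosome 1 between bases 24611535 and 24616197. Gm28661 matches mt-Co2 in 681 of 681 aligned bases, Gm10925 matches mt-Atp6 in 678 of 678, and Gm28437 matches mt-Co3 in 783 of 783. Gm28438 matches mt-Nd3 in 342 of 342 and Gm10222 matches mt-Nd4l in 294 of 294. For the longer genes the copy is partial. Gm28439 matches bases 1 to 876 of mt-Nd4 without a mismatch, and Gm29216 matches bases 1063 to 1545 of mt-Co1 with 1 mismatch.

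The share of each gene's sequence that also occurs in a transcript of another gene was counted in 50-base windows. It was 100% for mt-Co2, 99.9% for mt-Co3, 99.5% for mt-Atp6, 98.8% for mt-Nd4l and 98.0% for mt-Nd3, the genes at a few CPM per kb or less. It was 62.2% for mt-Nd4, 51.1% for mt-Co1, 8.19% for mt-Nd2, 7.61% for mt-Nd5 and 0% for mt-Nd1, mt-Cytb and mt-Nd6, all at over 100 CPM per kb. mt-Atp8 is the exception, with a share of 0% and 9 counts in all 12 libraries together. It lies between mt-Co2 and mt-Atp6, overlaps the start of mt-Atp6, and its place in the chromosome 1 copy has no annotated transcript, so its share is a lower bound. The 7 copies themselves drew 103 to 253 counts per library in sum, so the copies too were listed at low counts. How the authors' counting treated reads with more than a single match is not given in the sources used here, and its part in these levels was not tested. The values of mt-Co2, mt-Co3, mt-Atp6 and mt-Nd3 rest on 7 to 67 counts per library.

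**Figure D1:**
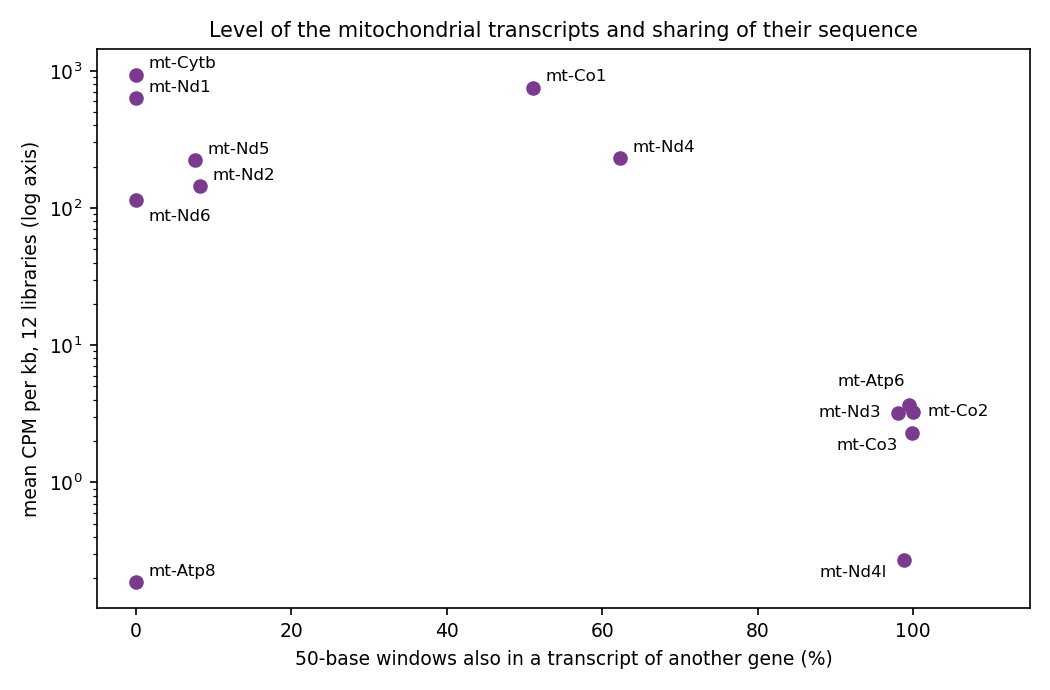
Mean level per kilobase (CPM per kb, log axis) of the 13 mitochondrially encoded genes over 12 libraries against the share of their 50-base windows found in a transcript of another gene (percent). The 5 genes with shares of 98.0% or more, and mt-Atp8, sit at 3.69 CPM per kb or less, and the other 7 at 114 or more.

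Some facts of the whole series bear on what follows. Libraries held 17071700 to 21689600 counts (rounded), with 3 counts, the limit that a count of 0 allows, equal to 0.142 to 0.182 CPM. Macrophage markers summed to 13316 to 18180 CPM in every library, and Cd68 alone reached 3169 CPM or more. In Tumor without Myelin they summed to 16507.5 to 18180 CPM, all above the 13375 to 15347 CPM of Control, while Full Tumor and Myelin Alone overlapped with Control. Markers of neurons, lymphocytes and erythroid cells summed to at most 3.31, 0.981 and 0.304 CPM. Microglia markers summed to 665 to 836 CPM in Full Tumor, 696 to 915 in Tumor without Myelin and 583 to 602 in Myelin Alone, all above the 382 to 512 CPM of Control, and their part in the comparisons with Control was not tested. Astrocyte markers summed to 36.9 to 142 CPM and endothelial markers to 18.2 to 31.6 CPM. In Full Tumor the astrocyte markers, at 36.9 to 107 CPM, lay below the 111 to 142 CPM of Control. The endothelial markers of Full Tumor, at 28.0 to 31.6 CPM, lay above the 18.2 to 24.1 CPM of Control. The part of the macrophage, astrocyte and endothelial differences in the comparisons was not tested either. Oligodendrocyte and myelin markers summed to 111 to 161 CPM, with Mbp at 44.5 to 77.0 CPM, and markers of tumor or oligodendrocyte progenitor cells to 6.12 to 25.3 CPM, with Olig2 at 0 counts in 11 of 12 libraries. These are bulk libraries, in which fewer cells of a type and less RNA per cell cannot be told apart.

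Summed over the 13 members, the mitochondrial transcripts averaged 3983 ± 105 CPM in Full Tumor, 4106 ± 909 in Tumor without Myelin, 3473 ± 943 in Myelin Alone and 3562 ± 1722 in Control (SD, n = 3 each). The Full Tumor libraries 957, 958 and 016 held 3862, 4036 and 4052 CPM, and those of Tumor without Myelin 3918, 5094 and 3305. Those of Myelin Alone held 3564, 4368 and 2488 CPM, and those of Control 3278, 5407 and 1999. The Control libraries thus held both the highest and the lowest sum of the 12, with every library of the other groups between them. The order of the groups turned round with the mn number. At 016 the sum was highest in Full Tumor, then Tumor without Myelin, Myelin Alone and Control, while at 958 Control was highest and Full Tumor lowest.

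The nuclear members summed to 15407 ± 1253 CPM in Full Tumor, 14700 ± 962 in Tumor without Myelin, 16257 ± 2097 in Myelin Alone and 15357 ± 774 in Control (SD, n = 3 each). The Full Tumor libraries 957, 958 and 016 held 15240, 16735 and 14246 CPM, and those of Tumor without Myelin 13719, 15641 and 14740. Those of Myelin Alone held 13885, 17865 and 17022 CPM, and those of Control 14471, 15699 and 15901. The groups overlapped. Over the libraries the nuclear sum was 3.52 to 4.15 times the mitochondrial sum in Full Tumor, 3.07 to 4.46 times in Tumor without Myelin, 3.90 to 6.84 times in Myelin Alone and 2.90 to 7.95 times in Control. These are ratios of the deposited counts, to which mt-Co2, mt-Co3, mt-Atp6, mt-Nd3, mt-Nd4l and mt-Atp8 added very little. They therefore do not measure the ratio of the RNAs in the cells.

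**Figure D2:**
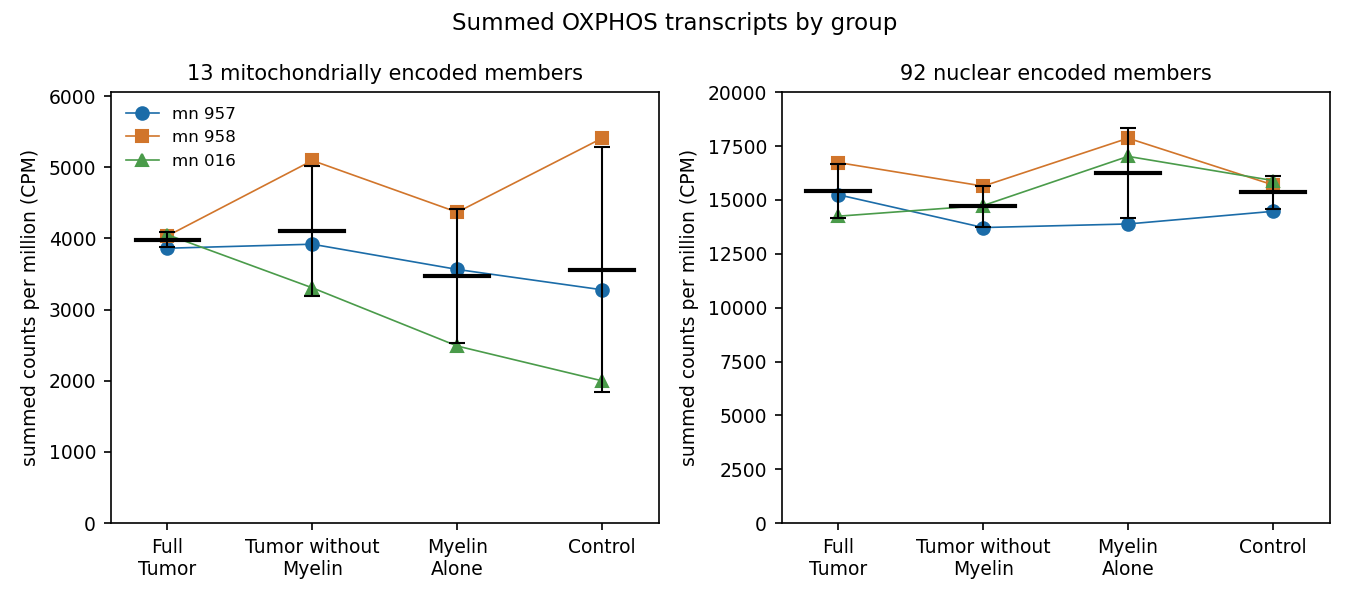
Summed CPM of the 13 mitochondrially encoded (left) and 92 nuclear encoded members (right) in Full Tumor, Tumor without Myelin, Myelin Alone and Control. Points are single libraries, with lines joining libraries of the same mn number, and black bars are the mean and SD of 3 libraries. The mitochondrial sums of Control run from 1999 at mn 016 to 5407 at mn 958, while those of Full Tumor lie between 3862 and 4052.

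mt-Cytb was the member with the highest level per kilobase. It had 985, 1082 and 1384 CPM in the Full Tumor libraries 957, 958 and 016, 1103, 1328 and 1141 in Tumor without Myelin, 993, 1175 and 714 in Myelin Alone, and 796, 1482 and 677 in Control. At 957 and 016 the Control library was the lowest of the 4 groups, and at 958 it was the highest. mt-Co1 had 1204, 1184 and 1058 CPM in Full Tumor, 1255, 1578 and 895 in Tumor without Myelin, 1191, 1361 and 819 in Myelin Alone, and 1022, 1764 and 612 in Control. It showed the same turn, with Control lowest at 957 and 016 and highest at 958.

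Among the complex I genes, mt-Nd1, part of the membrane arm near the ubiquinone site, had 615, 619 and 788 CPM in Full Tumor, 581, 789 and 651 in Tumor without Myelin, 532, 620.45 and 441 in Myelin Alone, and 503, 753 and 352 in Control. Full Tumor exceeded Control by most at 016, where it was also the highest group. mt-Nd5, a proton-pumping subunit, had 492, 514 and 353 CPM in Full Tumor, 444, 559 and 261 in Tumor without Myelin, 414, 473 and 219 in Myelin Alone, and 452, 577 and 149 in Control. Here the 016 library was the lowest of its group in all 4 groups. mt-Nd6, the only protein gene on the other strand of mitochondrial DNA, had 72.4, 84.9 and 28.6 CPM in Full Tumor, 56.7, 103 and 19.0 in Tumor without Myelin, 42.4, 101 and 24.0 in Myelin Alone, and 65.8, 93.9 and 17.3 in Control. The 016 library was again lowest in each group and the 958 library highest. mt-Nd6 and mt-Nd5 overlap on opposite strands, as do mt-Nd4l and mt-Nd4 on the same strand, and since the strand setting of the counting is not given, reads in the overlaps cannot be assigned.

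**Figure D3:**
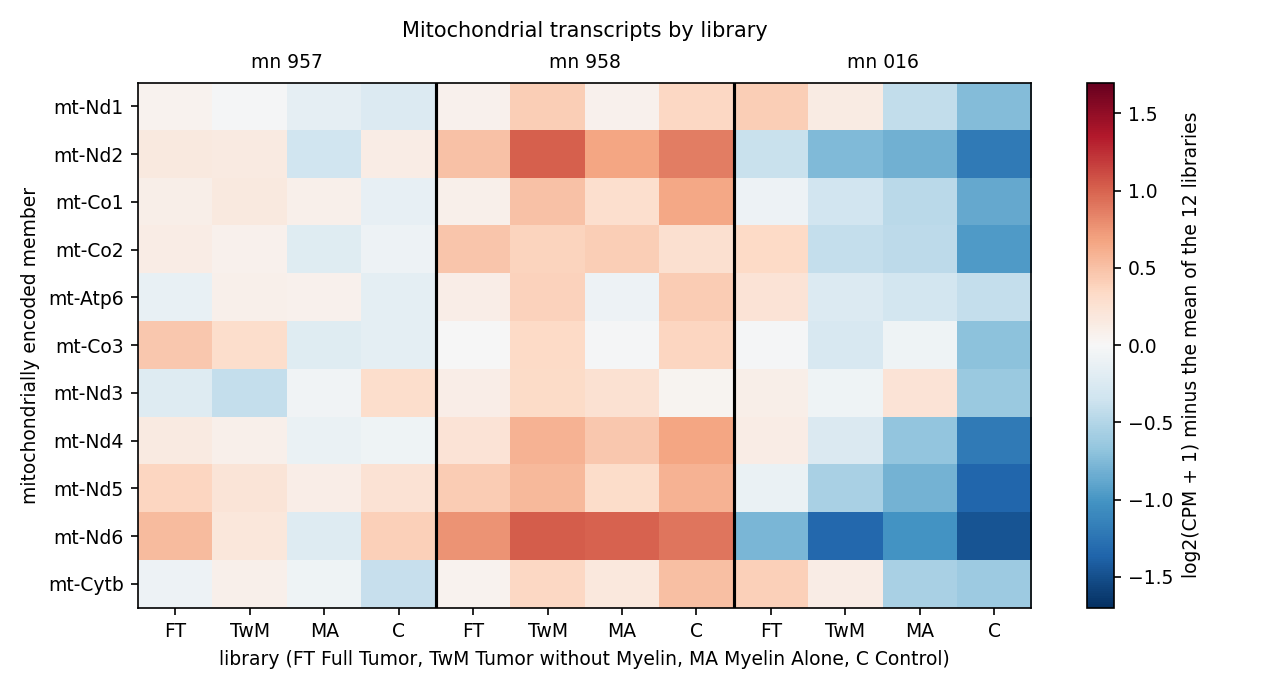
Heat map of the 11 mitochondrially encoded members kept by the filter, as log2(CPM + 1) minus the gene's mean over 12 libraries, with libraries ordered by mn number and within it Full Tumor, Tumor without Myelin, Myelin Alone and Control. The deepest blue is in Control at mn 016, and the reds gather at mn 958; mt-Co2, mt-Atp6, mt-Co3 and mt-Nd3 rest on 7 to 67 counts per library.

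In Full Tumor against Control, edgeR's quasi-likelihood test with group as the only term called 0 of the 100 members at an adjusted p under 0.05, and 0% of all 13414 genes. With the mn number as a block it called 0 members beside 0.813% of all genes. At an unadjusted p under 0.05 the members numbered 0 without the block and 1 with it, where 4.17% and 9.83% of all genes passed. Mitochondrial members had a median log2 fold change of 0.18, nuclear members −0.02 and all genes 0.00, with 10 of 11 mitochondrial and 35 of 89 nuclear members above 0. By mn number the mitochondrial median was 0.23 at 957, −0.37 at 958 and 1.16 at 016, and the nuclear median 0.07, 0.07 and −0.22. The compartments therefore moved apart at 016, with mitochondrial transcripts higher and nuclear ones lower in Full Tumor, and the other way at 958. Neutrophil markers, at 68.8 to 278 CPM in the other 11 libraries, summed to 482 CPM in Control 016, and macrophage markers there to 13375 CPM. The part of those cells in the mitochondrial values was not tested. The gap between compartment medians, mitochondrial minus nuclear, was 0.20 with all libraries, −0.16 without Control 016, 0.55 without Control 958 and −0.21 without the 4 libraries of 016.

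In the same comparison mt-Nd1 had a log2 fold change of 0.39 ± 0.20 (SE, with the block, adjusted p = 0.567), mt-Cytb 0.30 ± 0.22 (adjusted p = 0.734) and mt-Co1 0.14 ± 0.18 (adjusted p = 0.874) in edgeR's test. Without the block the log2 fold changes were smaller, at 0.33 for mt-Nd1, 0.22 for mt-Cytb and 0.02 for mt-Co1. Of the 11 mitochondrial members kept, only mt-Co2 and mt-Co3 held the sign of their fold change without the block whichever library or mn number was left out. Over the 7 mitochondrial members with a mean of at least 10 CPM the median SE was 0.40 without the block and 0.20 with it. For nuclear members it was 0.21 and 0.13, and 88 of 89 lay within 0.5 of 0. Such a p does not show that the groups had equal levels. Only 1 mitochondrial member was higher in Full Tumor at all 3 mn numbers and 0 were lower, where 16.4% of all genes were higher and 15.5% lower in that way. Among nuclear members 5 were higher and 9 lower. Cox5b-ps was the only member whose groups did not overlap, lower in Full Tumor, where 3.51% of all genes were lower and 4.59% higher in that way. It shares 61.9% of its 50-base windows with transcripts of Cox5b and of no other gene, and had 0.520 to 0.685 CPM in Full Tumor and 0.692 to 0.824 CPM in Control.

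Tumor without Myelin against Control divided the compartments by direction in the fit to all 12 libraries, but not at mn 958. All 11 mitochondrial members were above 0 without the block, mt-Nd3 being at −0.0078 with it (median log2 fold change 0.15 without the block), and 76 of 89 nuclear members below it (median −0.09), beside a median of 0.01 for all genes, of which 6531 of 13414 were below 0. By mn number the mitochondrial median was 0.21 at 957, −0.04 at 958, where 5 of 11 members were above 0, and 0.80 at 016, and the nuclear median −0.13, −0.01 and −0.14. The test called 0 members without the block, where 0% of all genes were called, and 0 with it, where 0.745% were called; at an unadjusted p under 0.05 there were 1 and 3 members, where 4.09% and 9.48% of all genes passed. At all 3 mn numbers, 38 nuclear members were lower and 2 higher, where 15.4% of all genes were lower and 16.5% higher. The lower ones numbered 13 of 37 in complex I without its assembly factors, 4 of 8 in complex III, 6 of 14 in complex IV without Cox5b-ps and 9 of 17 in complex V. Genes of the same libraries are not independent replicates. The groups did not overlap for 3 nuclear members, all lower, where 3.44% of all genes were lower and 4.25% higher in that way. They were Ndufv1, the NADH-oxidizing subunit of complex I, the assembly factor Ndufaf6, and Cox5b-ps. Ndufv1 had 169, 147 and 145 CPM in Tumor without Myelin against 179, 186 and 175 CPM in Control, a log2 fold change of −0.23 ± 0.14 without the block and −0.23 ± 0.10 with it (SE, edgeR adjusted p = 0.503 with the block). Ndufaf6 had 16.1, 15.8 and 16.4 CPM in Tumor without Myelin against 18.1, 19.9 and 23.4 CPM in Control, so that each Control library was above each library of Tumor without Myelin. The gap between compartment medians, 0.24 with all libraries, was −0.06 without Control 016 and 0.69 without Control 958.

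In Myelin Alone against Control, 80 of 89 nuclear members were above 0 with a median of 0.08, against 0.01 for all genes. The mitochondrial median was −0.02, with 3 of 11 members above 0. The nuclear medians differed in sign between the numbers, at −0.15 for 957, 0.23 for 958 and 0.12 for 016, and the mitochondrial medians were −0.06, −0.28 and 0.47. In the fits without and with the block, 0 members were called, beside 0% and 0.0373% of all genes, and 0 members had an unadjusted p under 0.05 in either, where 2.08% and 6.04% of all genes did. At all 3 numbers 11 nuclear members were higher and 1 was lower, where 13.7% and 12.7% of all genes were. The groups did not overlap for any member, where 3.21% of all genes were higher and 2.57% lower in that way. All 89 nuclear members lay within 0.5 of 0. The gap between compartment medians, −0.10 with all libraries, was 0.11 without Myelin Alone 016, 0.29 without Control 958 and −0.43 without Control 016. Since these comparisons share the Control libraries, their values are set side by side and not related to each other.

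Full Tumor and Tumor without Myelin differ in name by the myelin. Here 76 of 89 nuclear members were above 0, with a median of 0.07. All genes had a median of −0.0015, with the 25th percentile at −0.18 and the 75th at 0.14. The mitochondrial median was 0.00. That median joined opposite differences, at 0.07 for 957, −0.35 for 958, where 1 of 11 members was above 0, and 0.38 for 016, where 11 of 11 were. The nuclear medians were 0.19, 0.10 and −0.07, with 28 of 89 members above 0 at 016. Medians of all genes at single mn numbers are not set beside these, here or in the other comparisons. Such shifts at single numbers are therefore not shown to be particular to the members. The tests called 0 members, with 0% of all genes called in either fit, and 0 and 1 members had an unadjusted p under 0.05 without and with the block, where 1.2% and 3.88% of all genes did. At all 3 numbers 21 nuclear members were higher and 0 lower, against 14% and 14.5% of all genes. Complex V contributed 8 of 17 and complex I 8 of 37. Groups did not overlap for 3 members, all higher, where 2.58% of all genes were higher and 2.45% lower in that way. Ndufa10, an accessory subunit of complex I, averaged 207 ± 6.99 CPM in Full Tumor against 189 ± 8.57 CPM in Tumor without Myelin (SD, n = 3 each), with a log2 fold change of 0.14 ± 0.13 (SE). The others were Ndufaf6, at 17.2, 26.0 and 18.1 CPM in Full Tumor against 16.1, 15.8 and 16.4 CPM in Tumor without Myelin, and Cox5b-ps. The gap between compartment medians, −0.07 with all libraries, was 0.05 without Tumor without Myelin 958.

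Full Tumor against Myelin Alone had compartment medians of 0.26 for the mitochondrial and −0.09 for the nuclear members, with 10 of 11 mitochondrial members above 0 and 75 of 89 nuclear members below it. All genes had a median of −0.00087, with the 25th percentile at −0.18 and the 75th at 0.20. By number the mitochondrial medians were 0.25 at 957, −0.12 at 958 and 0.69 at 016, and the nuclear ones 0.23, −0.14 and −0.32. Only at 016 were the compartments on opposite sides of 0. The gap between compartment medians, 0.35 with all libraries, was 0.10 without Myelin Alone 016, 0.21 without Full Tumor 016 and 0.08 without the 4 libraries of 016. The test called 0 members, beside 0% of all genes without the block and 0.112% with it, and 1 member had an unadjusted p under 0.05 in each, where 3% and 7.42% of all genes did. At all 3 numbers 3 mitochondrial members were higher and 1 lower, and 0 nuclear members were higher and 4 lower, where 12.4% of all genes were higher and 11.7% lower. Groups did not overlap for Cox6a2 and Cox5b-ps, both lower, where 3.12% of all genes were lower and 3.63% higher in that way.

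The log2 fold change of Full Tumor over Tumor without Myelin was also set against that of Myelin Alone over Control, the interaction of the 2 parts of the group names. The median difference of log2 fold changes was 0.01 for mitochondrial and −0.02 for nuclear members. This test called 0 members and 0% of all genes in either fit, and 0 members had an unadjusted p under 0.05, where 1.14% of all genes without the block and 2.93% with it did. The test of any difference among the 4 groups also called 0 members, beside 0.999% of all genes with the block and 0% without, and 1 member had an unadjusted p under 0.05 in each, where 9.39% and 3.37% of all genes did. DESeq2 and limma-voom called 0 members in every comparison as well. Leaving out Full Tumor 016, Tumor without Myelin 016, Myelin Alone 016 or Control 958 turned the gap between compartment medians in the interaction, 0.03 with all libraries, to −0.07, −0.12, −0.20 and −0.35, and without Control 016 it was 0.35.

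**Figure D4:**
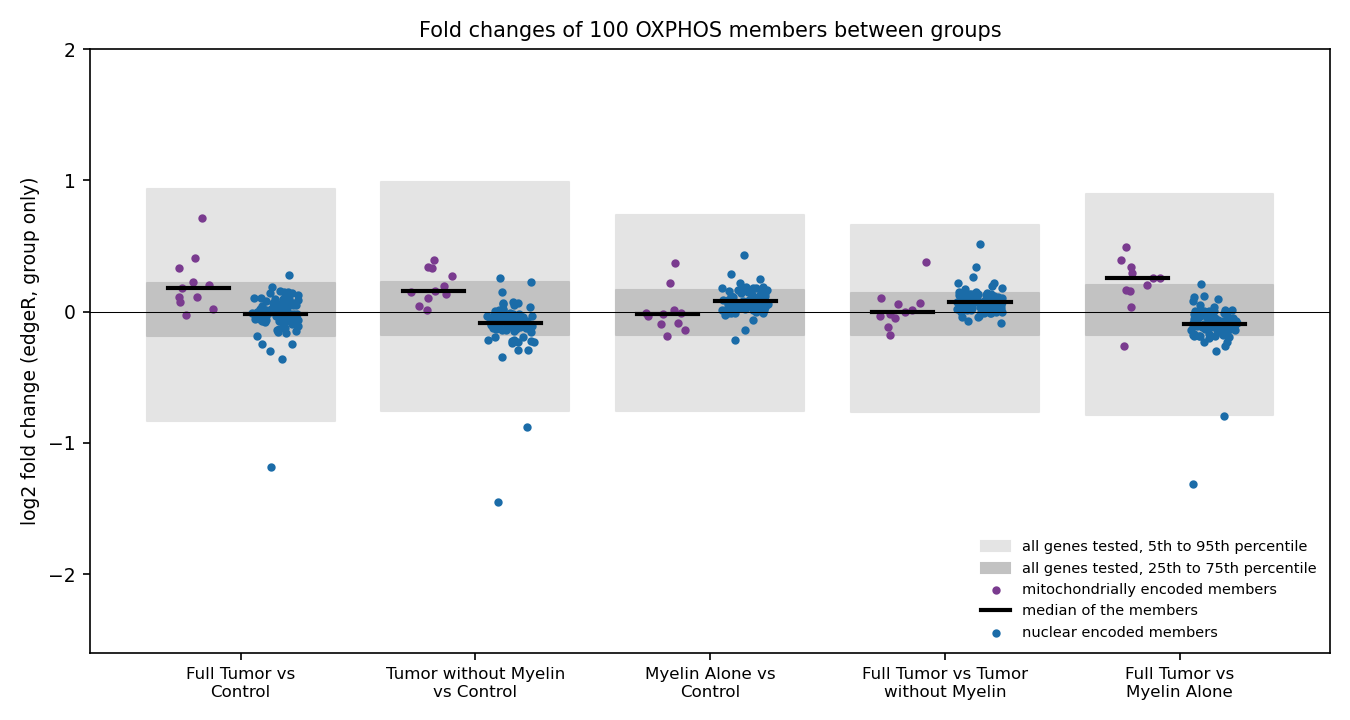
Log2 fold changes (edgeR, group only) of the 11 mitochondrially encoded and 89 nuclear encoded members in 5 comparisons, with black bars at their medians and grey bands for all 13414 genes tested. The mitochondrial median is highest, at 0.26, in Full Tumor against Myelin Alone, and the points below −0.5 are Cox6a2 and Cox5b-ps, both at low counts.

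Complex II, succinate dehydrogenase, is the entry point that is also part of the tricarboxylic acid cycle. Sdha, its flavoprotein, had 421, 367 and 541 CPM in Full Tumor, 427, 285 and 594 in Tumor without Myelin, 484, 247 and 493 in Myelin Alone, and 389, 194 and 512 in Control. Full Tumor was above Control at each number while the groups overlapped, with a log2 fold change of 0.28 ± 0.37 without the block and 0.38 ± 0.15 with it (SE, edgeR adjusted p = 0.423 with the block). Without Control 958 it was −0.029. The iron-sulfur subunit Sdhb had 585, 633 and 492 CPM in Full Tumor against 529, 604 and 579.5 CPM in Control. Sdhc and Sdhd, which anchor the enzyme in the membrane, averaged 236 ± 4.40 and 395 ± 26.7 CPM in Full Tumor against 239 ± 16.0 and 414 ± 18.9 CPM in Control (SD, n = 3 each). Only Sdha of the 4 varied widely, and it varied with the mn number.

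Complex IV has tissue isoforms, which were read for the form the macrophages used. Cox4i1, the common form, averaged 535 ± 76.6 CPM in Full Tumor, 504 ± 72.9 in Tumor without Myelin, 587 ± 119 in Myelin Alone and 526 ± 28.7 in Control (SD, n = 3 each). Its paralog Cox4i2, known from lung and from low oxygen, had 15 counts in all 12 libraries together. The liver-type Cox6a1 averaged 388 ± 76.2 CPM in Full Tumor and 380 ± 33.4 CPM in Control, and the heart and muscle form Cox6a2 stood at 4.18 CPM per kb, against 663 for Cox6a1. Cox6a2 had 2.91, 1.60 and 0.662 CPM in Full Tumor, 1.64, 1.43 and 1.22 in Tumor without Myelin, 3.74, 5.46 and 3.66 in Myelin Alone, and 4.10, 1.43 and 6.23 in Control. Both tumor groups lay below every Myelin Alone library and overlapped with Control only through its library 958. The log2 fold changes were −1.32 ± 0.60 in Full Tumor against Myelin Alone and −1.19 ± 0.60 against Control, and −1.45 ± 0.60 in Tumor without Myelin against Control (SE); with the block edgeR's adjusted p were 0.634, 0.562 and 0.483. The muscle form Cox7a1 stood at 15.8 CPM per kb, against 287 for Cox7a2. Ndufa4l2 and Cox6b2, the form known from testis, had 6 and 59 counts in all.

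The mn number moved the members far more than the group did. On log2(CPM + 1), the median SD was 0.202 between the means of the 3 numbers and 0.0772 between those of the 4 groups, with the number larger for 93 of 100 members. For mitochondrial members the values were 0.378 and 0.155, and for nuclear members 0.199 and 0.0753. The same SDs were not taken over all genes, so the count of 93 is not shown to be particular to the members. In the fit with the block, the number term was called for 52 of 100 members, 5 of 11 mitochondrial and 47 of 89 nuclear, where 34.9% of all genes were called. By nuclear complex, 23 of 45 members of complex I (assembly factors included), 1 of 4 of complex II, 5 of 8 of complex III, 9 of 15 of complex IV (Cox5b-ps included) and 9 of 17 of complex V were called. The share of members stayed above that of all genes whichever single library was left out, but the size of the excess varied. Without Full Tumor 957, 60.4% of the members tested and 31.5% of all genes were called. The excess was smallest without a 958 library of the groups other than Control. Without Full Tumor 958 the shares were 33% and 29.3%, without Tumor without Myelin 958 31% and 25.8%, and without Myelin Alone 958 25.7% and 25.3%.

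All 5 mitochondrial members called were lowest at 016 and highest at 958. Relative to 958, mean log2 CPM at 016 differed by −2.12 for mt-Nd6, the only protein gene on its strand, −1.56 for mt-Nd2, −1.18 for mt-Nd5, −0.99 for mt-Nd4 and −0.81 for mt-Co1. edgeR's adjusted p ranged from 9.68e-05 for mt-Nd6 to 0.00932 for mt-Nd4. mt-Cytb and mt-Nd1, with differences of −0.43 and −0.38, were not called (adjusted p = 0.140 and 0.174). Other transcripts moved with the number in the same direction. The mitochondrial ribosomal RNAs summed to 914 to 1671 CPM at 016 and 3012 to 3840 at 958, and the nuclear-retained RNAs, mainly Malat1 and Neat1, to 314 to 503 CPM at 016 and 765 to 1099 at 958. Their part in the mitochondrial values was not tested.

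Nuclear members went both ways. Ndufs1, the largest core subunit of complex I, had 148, 152, 137 and 145 CPM at 016 in Full Tumor, Tumor without Myelin, Myelin Alone and Control, and 70.5, 65.1, 59.4 and 65.5 CPM at 958. Every 016 library was above every 958 library, a difference of 1.16 in mean log2 CPM (adjusted p = 0.000784). Sdha differed by 1.00, Atp5b, the catalytic beta subunit of ATP synthase, by 0.60, Ndufaf7 by 0.51, Uqcrc2 by 0.50 and Atp5a1, the alpha subunit, by 0.47, with edgeR's adjusted p from 0.000554 to 0.0171. Among those on the other side, Cox7a2l, a factor that joins complexes III and IV into supercomplexes, differed by −0.67, and Ndufa1 by −0.52. Of the 47 nuclear members called, 20 were highest at 958 and lowest at 957, 19 highest at 958 and lowest at 016, 6 highest at 016 and lowest at 958, and 2 highest at 016 and lowest at 957.

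Between 016 and 958, direction went with transcript length. Nuclear members under 750 bases had a median difference between 016 and 958 of −0.35 (n = 37), those of 750 to 1500 bases −0.28 (n = 31) and those over 1500 bases 0.06 (n = 21). All protein-coding genes tested had medians of −0.42, −0.23 and 0.14 in the same classes. Across the 89 nuclear members Pearson's r between log2 length and the difference was 0.59 and Spearman's rho 0.59, and across 11600 protein-coding genes r was 0.07; genes are not independent replicates, and they share the same 8 libraries. Between 016 and 957 the nuclear medians were 0.01, 0.02 and 0.19 in the 3 classes, all above 0, with r at 0.40 across nuclear members and −0.02 across all protein-coding genes.

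**Figure D5:**
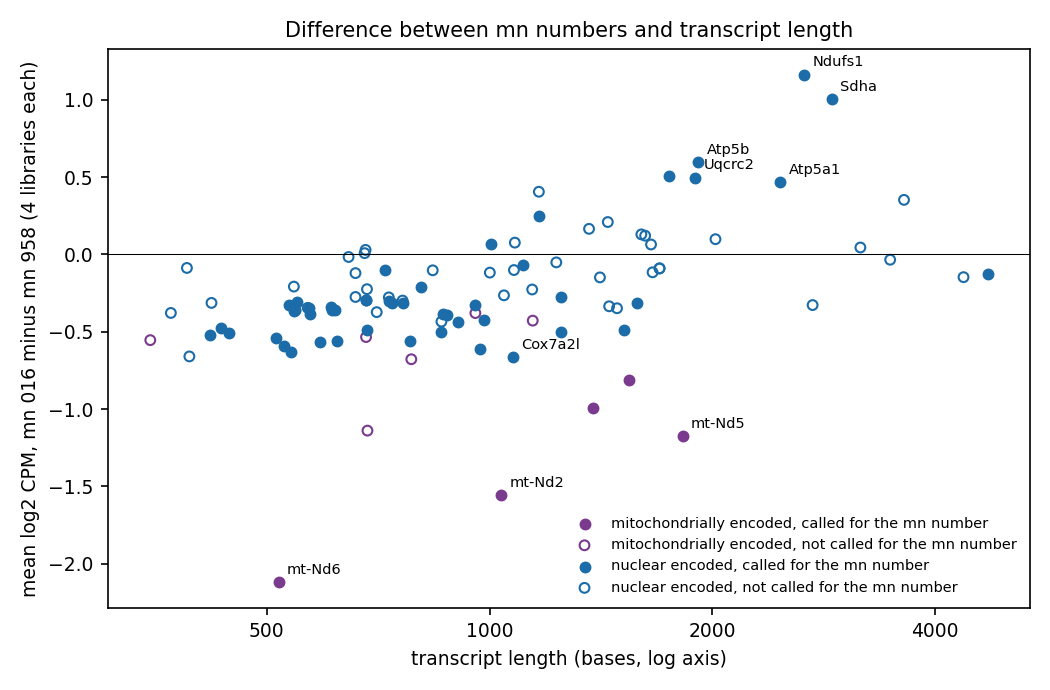
Difference in mean log2 CPM between the 4 libraries of mn 016 and the 4 of mn 958 for the 100 members, against the length of 1 transcript per gene (bases, log axis). Filled points were called for the mn number term by edgeR (adjusted p under 0.05); Ndufs1 at 1.16 and Sdha at 1.00 are highest, and mt-Nd6 at −2.12 is lowest.

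The genes that maintain and read mitochondrial DNA, or that control the nuclear members, were listed separately, and 0 of them were called in any of the 5 comparisons in either fit. Of all genes, 0% were called without the block and 0% to 0.813% with it, so few calls could be made in any list. The lists held 19 genes of the nucleoid and of mitochondrial transcription (15 tested), 21 of mitochondrial RNA processing (19 tested) and 14 regulators of nuclear respiratory genes (13 tested). Their median log2 fold changes in Full Tumor against Control were −0.0018, 0.07 and 0.06, beside 0.00 for all genes. Tfam, which packages mitochondrial DNA and starts its transcription, averaged 28.0 ± 3.16 CPM in Full Tumor, 24.9 ± 3.18 in Tumor without Myelin, 25.7 ± 2.14 in Myelin Alone and 24.7 ± 3.44 in Control (SD, n = 3 each). Polrmt, the mitochondrial RNA polymerase, averaged 26.4 ± 4.59 CPM in Full Tumor and 20.3 ± 6.17 CPM in Control, a log2 fold change of 0.40 ± 0.24 with the block (SE, edgeR adjusted p = 0.649). Nrf1, the activator after which nuclear respiratory factor sites are named, averaged 48.0 ± 14.9 CPM in Full Tumor and 35.9 ± 8.70 CPM in Control. The coactivator Ppargc1a had 0 counts in 11 of 12 libraries.

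Promoters of the nuclear members were searched on both strands for the NRF1 core (the first run of capitals in the sequence shown here), the ETS core CCGGAAG bound by GABPA, and the YY1 core AAGATGGC. RefSeq promoters (GRCm38.p6, 250 bases before to 50 after the start) were found for 75 of the 92. The NRF1 letters occurred in 7 of the 75 (9.33%) and in 0.977% of 27025 promoters of all genes, the ETS letters in 18 (24%) and 9.12%, and the YY1 letters in 10 (13.3%) and 2.88%. The promoter of Cox6a1 (chr5:115348909-115349208, minus strand), whose transcript was called for the mn number but in no comparison between groups, is printed because it holds both of the first 2, in capitals, the ETS letters in reverse complement. A match is a description of the letters and not evidence of binding.
Cox6a1: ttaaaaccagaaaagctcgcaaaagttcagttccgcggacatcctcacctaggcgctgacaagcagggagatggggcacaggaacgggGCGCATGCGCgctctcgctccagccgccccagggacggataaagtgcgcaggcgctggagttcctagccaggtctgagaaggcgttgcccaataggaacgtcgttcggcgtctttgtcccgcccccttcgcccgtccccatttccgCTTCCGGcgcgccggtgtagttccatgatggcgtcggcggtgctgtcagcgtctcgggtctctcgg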

How the data were processed

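Per the labels' protocols, sorted macrophages gave RNA that was reverse transcribed from its poly(A) end with template switching. The deposited values are raw gene counts, unnormalized. The build was mm10, per the submitters' processing notes. Which aligner and counter were used, and with what strand setting, is not given here in the sources. All 12 value columns matched a sample by its label.

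CPM (library total times the TMM factor, 0.965 to 1.06), fold changes and tests were derived from those deposited counts. edgeR 4.0.16 in R 4.3.3 fitted its quasi-likelihood model to all 12 libraries, with group as the only term and filterByExpr, and p-values two-sided and adjusted by Benjamini-Hochberg over 13414 genes at 0.05. Each SE was obtained by dividing the size of the log2 fold change by the root of its F statistic. The biological coefficient of variation was 0.414, and 0.266 with the mn number as a block. Deviations from group means correlated at r over 0.1 in 18 of 18 same-numbered pairs (0.120 to 0.631, median 0.329, across genes), so the numbers from the labels pair the libraries. Replicates differed well beyond counting noise, at a chi-square of 23.9 to 142 per degree of freedom.

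Lengths and shared windows came from 1 GENCODE M21 transcript per gene, whose gene spans equal those in the table for all 105 members. Differences between mn numbers used mean log2 CPM with a prior count of 2. Members, gene lists and tests were chosen with earlier results of these data known. The named genes were all mitochondrial members, the 4 highest and 4 lowest nuclear fold changes in Full Tumor against Control and the 2 highest and 2 lowest in the other comparisons, members called in either fit, pairs of tissue isoforms and the complex II genes, besides members whose groups did not overlap, which were named after their values were seen. The procedure was checked on simulated counts. Alternatives were library totals alone, RLE size factors, DESeq2 1.42.0, limma-voom 3.58.1, no low-count filter, the block, subunits only and leaving out libraries, and, chosen after seeing the data, adding the counts of the chromosome 1 copies to their mitochondrial genes and keeping only mitochondrial members with a mean of 10 CPM or more.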

Additional observations from a re-analysis of the deposited data

How the results depend on the processing

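In all alternatives that were run, 0 members were called in the 5 comparisons, the interaction and the test of any difference among groups. With the mn number as a replicate block, which the pairing check allows, edgeR called 109 genes in Full Tumor against Control, 100 in Tumor without Myelin against Control, 5 in Myelin Alone against Control, 15 in Full Tumor against Myelin Alone and 134 for any difference, and no member. These blocked counts depended on the numbers included: without 957, 958 and 016 they were 1, 4 and 183 in Full Tumor against Control, 6, 4 and 153 in Tumor without Myelin against Control, 0, 0 and 9 in Myelin Alone against Control, 0, 0 and 120 in Full Tumor against Myelin Alone and 0, 4 and 197 for any difference. DESeq2 called 43, 54, 11, 19 and 111 genes in the same order, and 5 in Full Tumor against Tumor without Myelin; without the low-count filter edgeR called 3, 1 and 6 for the first, second and last. Without the block, leaving out libraries gave 0 to 69, 0 to 61, 0 to 51 and 0 to 86 genes for Full Tumor against Control, Tumor without Myelin against Control, Full Tumor against Myelin Alone and any difference, and, in the blocked fit, 26 to 61 members for the mn number. The mitochondrial minus nuclear median ranged over left-out libraries from −0.21 to 0.57, −0.06 to 0.69, −0.43 to 0.29, −0.28 to 0.14, 0.08 to 0.54 and −0.35 to 0.35 for the 5 comparisons in the order of the text and the interaction. With the chromosome 1 copies added the median gap in Full Tumor against Myelin Alone was 0.29, against 0.35. With library totals alone the Full Tumor against Control log2 fold changes were −0.057 for mt-Co1, −0.00956 for mt-Nd6, −0.037 for Cox4i1 and −0.032 for Cox6a1, each above 0 with TMM scaling of all 12 libraries. mt-Nd2 was 0.17 with limma-voom and 0.17 with the block. The cause was not tested. Leaving out libraries also turned the sign of these log2 fold changes, given as their range. In Full Tumor against Control they were Ndufa1 −0.066 to 0.32, Cox7a1 −0.062 to 0.52, Sdha −0.029 to 0.59, mt-Nd1 −0.023 to 0.71, mt-Nd2 −0.42 to 0.53, mt-Co1 −0.29 to 0.49, mt-Atp6 −0.23 to 0.52, mt-Nd3 −0.40 to 0.71, mt-Nd4 −0.19 to 0.70, mt-Nd5 −0.20 to 0.59, mt-Nd6 −0.38 to 0.58, mt-Cytb −0.14 to 0.68, Cox4i1 −0.086 to 0.12, Cox6a1 −0.13 to 0.16, Cox7a2 −0.16 to 0.097, Cox8a −0.14 to 0.085, Ndufa4 −0.20 to 0.093, Sdhb −0.094 to 0.11, Sdhc −0.069 to 0.019, Sdhd −0.17 to 0.0097. In Tumor without Myelin against Control they were Cox7a1 −0.064 to 0.56, Sdha −0.048 to 0.57. In Myelin Alone against Control they were Ndufaf5 −0.35 to 0.070. In Full Tumor against Tumor without Myelin they were Ndufs1 −0.51 to 0.28, Ndufaf4 −0.15 to 0.062. In Full Tumor against Myelin Alone they were Sdha −0.14 to 0.29, Ndufaf6 −0.14 to 0.41.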

Other observations

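Genes that feed the respiratory chain or use its gradient were measured beside it. Of 26 listed genes of the tricarboxylic acid cycle and pyruvate entry, 25 were tested. By edgeR 0 of them were called in any of the 5 comparisons, with or without the block. Of all genes, 0% were called without the block and 0% to 0.813% with it. At most 1 listed gene had an unadjusted p under 0.05 without the block and at most 3 with it. Of all genes, 1.2% to 4.17% passed that limit without the block and 3.88% to 9.83% with it. The median log2 fold change of the listed genes was 0.07 in Full Tumor, 0.04 in Tumor without Myelin and 0.08 in Myelin Alone, each against the same Control libraries. Citrate synthase, Cs, averaged 273 ± 76.5 CPM in Full Tumor, 270.4 ± 96.3 in Tumor without Myelin, 269.7 ± 57.0 in Myelin Alone and 271 ± 63.4 in Control (SD, n = 3 each). Ucp2, a carrier of the uncoupling protein family, averaged 1089.9 ± 79.2 CPM in Full Tumor, 1141 ± 157 in Tumor without Myelin, 958 ± 137 in Myelin Alone and 1004 ± 287 in Control. Acod1, which makes itaconate, an inhibitor of succinate dehydrogenase in activated macrophages, averaged 12.9 ± 8.47 CPM in Full Tumor, 6.33 ± 1.47 in Tumor without Myelin, 6.80 ± 4.28 in Myelin Alone and 7.52 ± 6.84 in Control, with groups that overlapped.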
